A study of Mus musculus with 6 samples.

Results

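The genes described here are 8 enzymes and adaptors of class-switch recombination, the DNA exchange by which an activated B cell replaces the constant region of its antibody heavy chain: Ung, Apex1, Msh6, Exo1, Trp53bp1, Rif1, Xrcc4 and Lig4. They were chosen by gene name, at the locus of highest mean for each name. Each of the 8 had 1 locus, among 44794 loci that carry a gene name. Of the 8 genes, 6 had a mean of at least 10 scaled counts over the 6 libraries and were among the 19227 named loci tested. Xrcc4 and Apex1 fell under that minimum and are given as values.

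Whole spleen tissue of Sle1b.IFNγR-/- mice, which lack the receptor for interferon gamma (3 samples), was compared with that of B6.Sle1b mice (3 samples), which are prone to autoimmunity and served as controls. Both genotypes carry the Sle1b lupus susceptibility interval, and both were given imiquimod, a small molecule that activates TLR7, for 4 weeks with 3 doses in each. No untreated spleens and no mice without Sle1b were analysed here. The loss of the receptor is not limited to B cells, and neither the ages of the mice nor whether each spleen came from a separate litter or cage is given in the sources used here, so the tests below speak for these spleens, whose spread may be partly technical. The study asked how interferon gamma promotes autoreactive B cells in the germinal centre and antibody-forming cell pathways. Values are fragment counts that the authors scaled between libraries, called scaled counts below.

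Class switching starts when cytosines of the switch regions are turned into uracils. The uracil glycosylase Ung removes the uracil and the endonuclease Apex1 nicks the site, or the mismatch-repair protein Msh6 takes part in recognising the lesion and the exonuclease Exo1 resects from it. The resulting breaks are held and shielded from resection by Trp53bp1 (53BP1) and its effector Rif1, and are joined by non-homologous end joining, whose last step is carried out by the ligase Lig4 with its scaffold Xrcc4. These proteins also repair DNA in other dividing cells, so their RNA in a spleen does not come from switching B cells alone. In whole spleen, fewer cells of a type and less RNA per cell cannot be told apart.

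The 6 libraries held between 4394298 and 6349824 assigned fragments, and 1 fragment was worth between 0.822 and 1.198 scaled counts. Ifngr1, which encodes the ligand-binding chain of the receptor, had 43.7, 21.4 and 23.96 scaled counts in Sle1b.IFNγR-/- spleens, against 81.5, 34.5 and 63.7 in B6.Sle1b spleens, and the groups overlapped. Its log2 difference was -0.98, with an unadjusted p under 0.05 in limma that did not pass after adjustment. Without B6.Sle1b replicate 1 the Ifngr1 difference was -0.71, and without B6.Sle1b replicate 2 it was -1.32. Ifngr2, with a mean of 8.87, was not tested. B6.Sle1b replicate 1 stood apart. The 29 ribosomal protein genes were at 0.869 to 0.881 times their mean over the libraries in Sle1b.IFNγR-/- spleens, against 3.05, 0.743 and 0.949 times in B6.Sle1b replicates 1, 2 and 3. Loci with a gene name took 19.2% to 19.8% of the scaled counts in Sle1b.IFNγR-/- spleens, against 27.0%, 17.5% and 20.0% in the same B6.Sle1b replicates. B cell markers were present in every library, and their summed level over 10 genes was 1099 to 1184 in Sle1b.IFNγR-/- spleens and 2043, 971 and 1183 in B6.Sle1b replicates 1, 2 and 3.

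None of the 8 genes separated the genotypes. In every one of them the range of the Sle1b.IFNγR-/- spleens overlapped the range of the B6.Sle1b spleens. Of the 19227 tested loci, 8.7% had groups that did not overlap (3.51% higher and 5.19% lower in Sle1b.IFNγR-/-). For a set of 6 tested genes, 0 without overlap is near that share, so the genes do not differ from other loci in this. No tested gene of the 6 passed an adjusted p of 0.05 in limma with Benjamini-Hochberg adjustment, and no other tested locus did (0.0% called), while 596 loci, or 3.1%, had an unadjusted p under 0.05. None of the 6 genes was among those 596. Of the 6, 3 were lower and 3 were higher in Sle1b.IFNγR-/- spleens, with a median log2 difference of -0.048. Over all tested loci, 58.1% were lower and the median was -0.083. With ribosomal protein genes as the scale, which moved the median of all tested loci to 0.45, 1 of the 6 was lower and their median was 0.50. Median-ratio and upper-quartile scaling gave medians of 0.031 and 0.057.

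**Figure D1:**
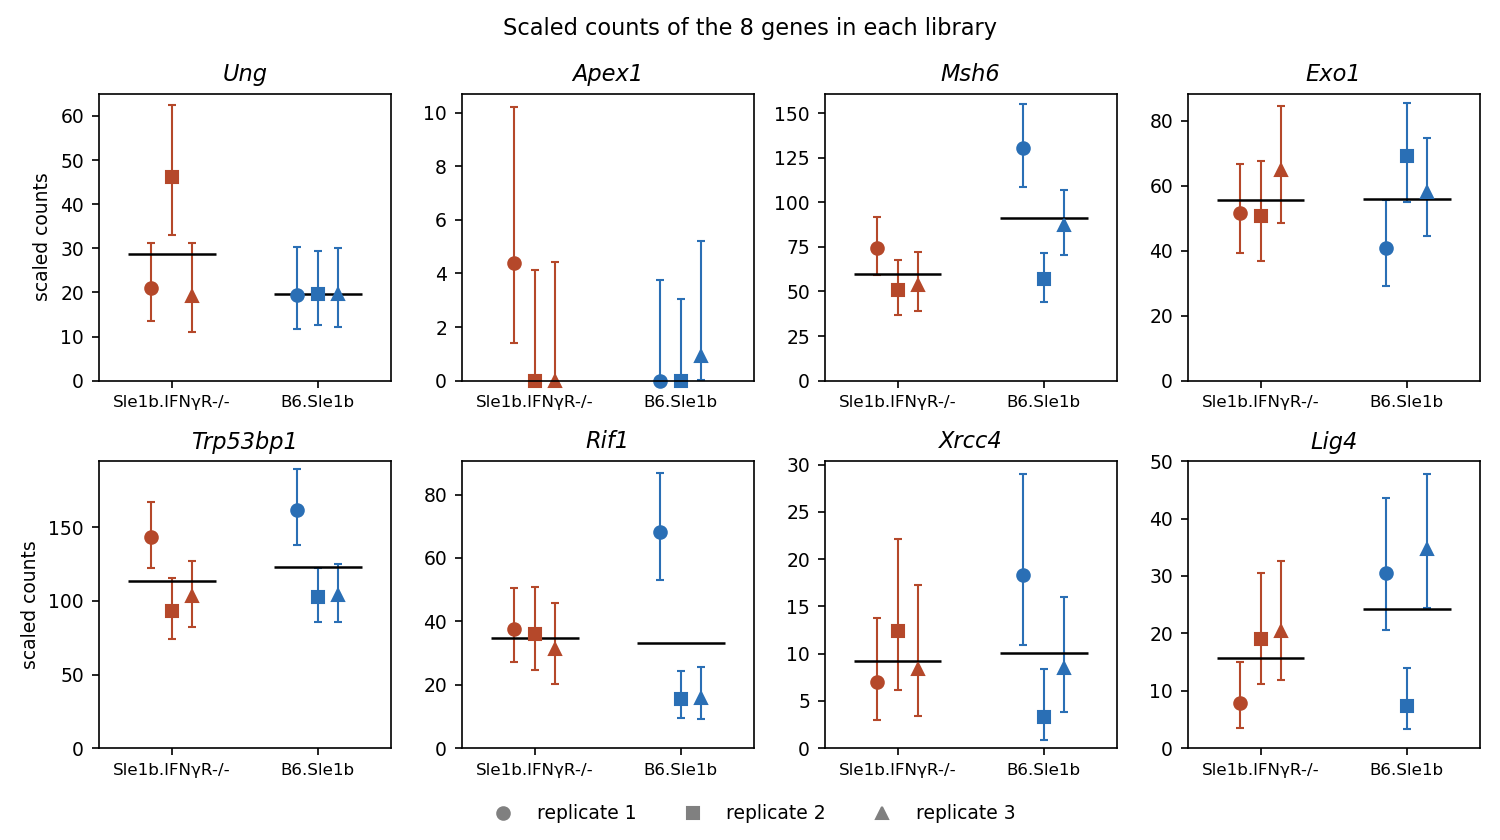
Scaled counts of the 8 genes, with Sle1b.IFNγR-/- libraries in red on the left and B6.Sle1b libraries in blue on the right of each panel. Points are single libraries, vertical bars are exact Poisson 95% intervals of the fragment count and cover counting error only, and horizontal lines are group means (not drawn for Apex1, listed at 0 in 4 libraries); the ranges of the groups overlap in every panel.

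Ung is the glycosylase that opens the base-excision branch (GRCm38 chromosome 5, 114130386 to 114139323, plus strand). It had 21.0, 46.1 and 19.2 scaled counts in Sle1b.IFNγR-/- spleens, against 19.4, 19.7 and 19.7 in B6.Sle1b spleens. The 3 B6.Sle1b libraries and 2 of the Sle1b.IFNγR-/- libraries lay within a few counts of each other, and Sle1b.IFNγR-/- replicate 2 stood above all of them. That library's count of 41 fragments has an exact Poisson 95% interval of 33.1 to 62.5 scaled counts, above the upper bound of every other library, the highest of which is 31.2. Means were 28.7 ± 15.0 in Sle1b.IFNγR-/- and 19.6 ± 0.202 in B6.Sle1b (SD, n = 3 each), a log2 difference of 0.42 (SE 0.42, 95% interval -0.49 to 1.33, adjusted p = 0.9998 in limma). Without Sle1b.IFNγR-/- replicate 2 the log2 difference was 0.03.

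Msh6, a mismatch-recognition protein, had the lowest p of the 6 (GRCm38 chromosome 17, 87975062 to 87990892, plus strand). It had 74.3, 50.6 and 53.9 scaled counts in Sle1b.IFNγR-/- spleens, against 130.4, 56.7 and 87.2 in B6.Sle1b spleens. The highest and second highest libraries were both B6.Sle1b, but B6.Sle1b replicate 2 lay among the Sle1b.IFNγR-/- libraries. Means were 59.6 ± 12.9 in Sle1b.IFNγR-/- and 91.4 ± 37.0 in B6.Sle1b (SD, n = 3 each). The log2 difference was -0.55 (SE 0.35, 95% interval -1.30 to 0.20), with an unadjusted p of 0.137 and an adjusted p of 0.9998 in limma. Without B6.Sle1b replicate 1 it was -0.26, and without B6.Sle1b replicate 2 it was -0.85, with an unadjusted p of 0.022 and an adjusted p of 0.464 in the same limma fit. With ribosomal protein genes as the scale it was -0.00036, beside the median of 0.45 over all tested loci on that scale. Counted from the median of all tested loci, the Msh6 difference was -0.45 on that scale and -0.47 in the main fit. With the ribosomal and housekeeping levels as covariates, the Msh6 log2 difference was -0.27 and -0.30. Both covariates were highest by far in B6.Sle1b replicate 1, so these fits come close to leaving that library out. The Msh6 locus overlaps Fbxo11, a ubiquitin ligase subunit on the opposite strand, and no use of strand in counting is stated, so their reads cannot be told apart where they overlap.

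The promoters of Msh6 and Ung, the 2 tested genes of lowest p, are shown because these are the genes whose levels stood furthest from equality against their spread. The bases come from RefSeq (GRCm38.p6) and lie upstream of the RefSeq start, at chr17:87974800-87975049 for Msh6 and chr5:114130185-114130385 for Ung, both on the plus strand. The Ung run stops before the first base that GENCODE counts as exon. Capitals mark matches, on either strand, to the GC box GGGCGG or to CCAAT, and neighbouring GC boxes in Msh6 share bases.
Msh6: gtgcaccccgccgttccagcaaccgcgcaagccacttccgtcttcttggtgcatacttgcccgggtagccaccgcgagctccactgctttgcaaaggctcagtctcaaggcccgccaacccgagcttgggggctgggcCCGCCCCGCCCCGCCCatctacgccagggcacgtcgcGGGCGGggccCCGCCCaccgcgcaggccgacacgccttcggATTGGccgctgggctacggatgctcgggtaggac
Ung: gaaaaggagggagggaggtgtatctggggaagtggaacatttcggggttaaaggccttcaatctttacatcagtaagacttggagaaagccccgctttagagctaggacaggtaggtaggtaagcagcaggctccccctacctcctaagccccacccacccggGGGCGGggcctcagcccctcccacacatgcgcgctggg

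Both windows were rich in G and C. Over the full 250 bases before the start, G and C made up 70.8% in Msh6 and 62.8% in Ung, and 53.2% on average over 32851 such windows. Msh6 held 5 GC boxes and 1 CCAAT box, and Ung held 2 GC boxes, of which 1 lies in the bases not printed. The GC box was found in all 6 of the genes with an entry in the promoter table, and in 32.7% of all windows. A gene was counted if any of its windows held a match, while the shares are over single windows. For Lig4, the window at chr8:9976312-9976561 held the GC box and that at chr8:9977681-9977930 did not. CCAAT was found in Msh6 and Apex1, and in 33.8% of all windows. The gamma-activated site TTCNNNGAA, an element of promoters that respond to interferon gamma, was found in none of the 6 and in 7.02% of all windows. The core of the interferon-stimulated response element, searched as GAAA, any 2 bases and GAAA, was found in none of the 6 and in 2.98% of all windows. The E2F octamers TTTCCCGC, TTTGGCGC, TTTCGCGC and TTTGCCGC, bound by cell-cycle factors, were found in none of the 6 and in 1.86% of all windows. A match or its absence says only what letters these windows hold.

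Exo1, the 5′ to 3′ exonuclease that resects from the mismatch, was the gene closest to equality (GRCm38 chromosome 1, 175880581 to 175913489, plus strand). It had 51.6, 50.6 and 64.7 scaled counts in Sle1b.IFNγR-/- spleens, against 40.8, 69.1 and 58.1 in B6.Sle1b spleens. The highest and the lowest libraries were both B6.Sle1b, and B6.Sle1b replicate 1, the highest library for Msh6, Trp53bp1, Rif1 and Xrcc4, was the lowest here. Means were 55.6 ± 7.87 in Sle1b.IFNγR-/- and 56.0 ± 14.3 in B6.Sle1b (SD, n = 3 each), a log2 difference of 0.01 (SE 0.32, 95% interval -0.67 to 0.70, adjusted p = 0.9998 in limma). Its direction is not set, since Sle1b.IFNγR-/- was lower by the mean of scaled counts and higher by the mean of logarithms. With 3 samples a group, the 95% interval still held any log2 difference between -0.67 and 0.70. The locus contains the snRNA gene Gm23805.

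Apex1, the endonuclease that cuts the site Ung leaves, was listed at 0 in 4 of the 6 libraries (GRCm38 chromosome 14, 50924968 to 50927139, plus strand). It had 4.37, 0 and 0 scaled counts in Sle1b.IFNγR-/- spleens, against 0, 0 and 0.937 in B6.Sle1b spleens. Sle1b.IFNγR-/- replicate 1, with 5 fragments, was the only library above 3 fragments. No fold is given, since 5 of the 6 libraries were at or under that floor. A housekeeping gene, Hprt, was also listed at 0 in B6.Sle1b replicate 2, so a 0 here is not a measure of absence. The Apex1 locus overlaps Pip4p1, a phosphatase gene on the opposite strand.

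Trp53bp1, the chromatin-bound adaptor that keeps break ends from resection, drew the most fragments of the 8, over the longest exons (GRCm38 chromosome 2, 121193281 to 121271407, minus strand). It had 143, 93.3 and 103 scaled counts in Sle1b.IFNγR-/- spleens, against 162, 102.8 and 104.1 in B6.Sle1b spleens. Replicate 1 was the highest library in both genotypes, and the other 4 libraries lay close together. Means were 113.2 ± 26.6 in Sle1b.IFNγR-/- and 122.9 ± 33.8 in B6.Sle1b (SD, n = 3 each), a log2 difference of -0.11 (SE 0.30, 95% interval -0.75 to 0.54, adjusted p = 0.9998 in limma). The sign of this difference depended on the scaling: with ribosomal protein genes as the scale it was 0.44, beside the median of 0.45 over all tested loci on that scale. Trp53bp1 overlaps Tubgcp4, a gamma-tubulin complex gene on the opposite strand.

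Rif1, the effector that 53BP1 recruits to breaks, had the largest SD of log2 levels over the B6.Sle1b libraries among the tested genes (GRCm38 chromosome 2, 52072832 to 52122383, plus strand). It had 37.6, 36.0 and 31.1 scaled counts in Sle1b.IFNγR-/- spleens, against 68.3, 15.6 and 15.9 in B6.Sle1b spleens. The 3 Sle1b.IFNγR-/- libraries lay close together between B6.Sle1b replicate 1 above and B6.Sle1b replicates 2 and 3 below. The exact Poisson 95% interval of B6.Sle1b replicate 1 was 52.9 to 86.7 and that of B6.Sle1b replicate 2 was 9.40 to 24.4. Means were 34.9 ± 3.36 in Sle1b.IFNγR-/- and 33.3 ± 30.3 in B6.Sle1b (SD, n = 3 each), a log2 difference of 0.41 (SE 0.50, 95% interval -0.68 to 1.501, adjusted p = 0.9998 in limma).

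The Rif1 value rested on single B6.Sle1b libraries. Without B6.Sle1b replicate 1 the log2 difference was 1.09, with an unadjusted p of 0.016 and an adjusted p of 0.993 in limma. Without B6.Sle1b replicate 2 it was 0.06, and without B6.Sle1b replicate 3 it was 0.08. With the level of the ribosomal protein genes as a covariate, the log2 difference was 1.01, with an unadjusted p of 0.014 and an adjusted p of 0.950 in limma. Ribosomal protein genes were high in the same library in which Rif1 was high, and their part in the result was not tested.

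Xrcc4, the scaffold of the ligase, had few fragments (GRCm38 chromosome 13, 89774027 to 90089608, minus strand). It had 6.99, 12.4 and 8.38 scaled counts in Sle1b.IFNγR-/- spleens, against 18.3, 3.29 and 8.43 in B6.Sle1b spleens. The extremes were again B6.Sle1b replicates 1 and 2, with the Sle1b.IFNγR-/- libraries between them. When loci of low level were kept in the fit, its log2 difference was 0.12 (SE 0.74, 95% interval -1.42 to 1.66, adjusted p = 0.996 in limma). Xrcc4 overlaps Tmem167 and the antisense gene Gm4117 on the opposite strand and the snRNA gene Gm24498 on its own.

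Lig4, the ligase that seals the joined ends, varied within both genotypes (GRCm38 chromosome 8, 9969049 to 9977686, minus strand). It had 7.87, 19.1 and 20.4 scaled counts in Sle1b.IFNγR-/- spleens, against 30.6, 7.40 and 34.7 in B6.Sle1b spleens. B6.Sle1b replicates 1 and 3 were the highest libraries, and B6.Sle1b replicate 2 was the lowest, beside Sle1b.IFNγR-/- replicate 1. Means were 15.8 ± 6.88 in Sle1b.IFNγR-/- and 24.2 ± 14.7 in B6.Sle1b (SD, n = 3 each), a log2 difference of -0.44 (SE 0.60, 95% interval -1.73 to 0.86, adjusted p = 0.9998 in limma). Left-out libraries moved it widely: it was -0.03 without Sle1b.IFNγR-/- replicate 1, -0.15 without B6.Sle1b replicate 1 and -0.06 without B6.Sle1b replicate 3. Without B6.Sle1b replicate 2 it was -1.10, with an unadjusted p of 0.045 and an adjusted p of 0.535 in limma. With the ribosomal level as a covariate, which comes close to leaving out B6.Sle1b replicate 1, it was -0.094. With ribosomal protein genes as the scale it was 0.093, beside the median of 0.45 over all tested loci on that scale.

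**Figure D2:**
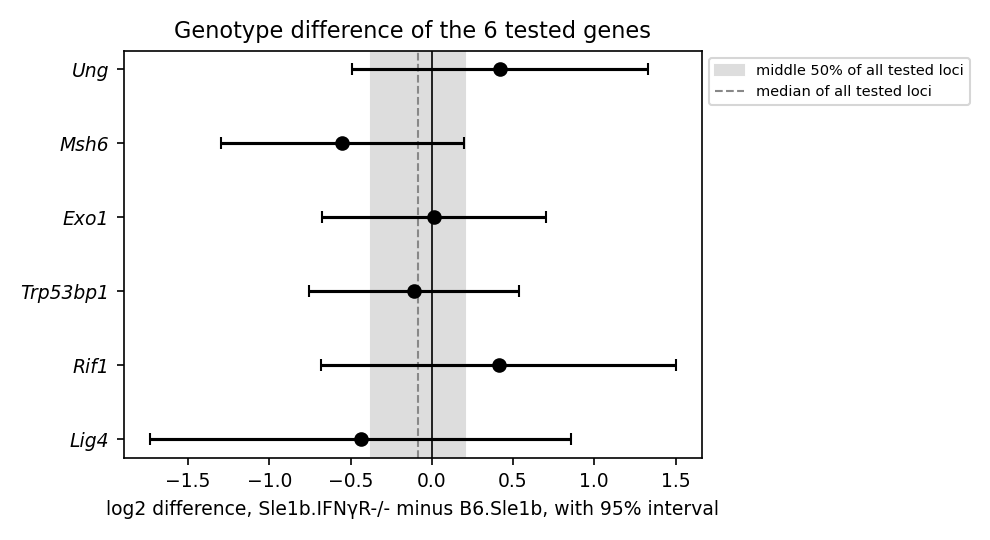
Log2 difference of the 6 tested genes, Sle1b.IFNγR-/- minus B6.Sle1b, on the horizontal axis, with one gene per row; bars are 95% intervals from limma, n = 3 per genotype. Every interval spans 0, from the narrowest, Trp53bp1 (-0.75 to 0.54), to the widest, Lig4 (-1.73 to 0.86); the grey band is the middle 50% of all tested loci (-0.37 to 0.20) and the dashed line their median.

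Levels can be ordered between genes only per length, and the unit here is scaled counts per kilobase of annotated exon, as a mean over the 6 libraries. Msh6 was highest at 17.4 ± 6.98 (SD, n = 6), and its lowest library, 11.6, lay just above the highest library of Trp53bp1, 11.4. Trp53bp1 followed at 8.34, then Exo1 at 6.63, Ung at 4.42, Lig4 at 3.84, Rif1 at 3.25, Xrcc4 at 2.29 and Apex1 at 0.622. Each of these neighbours below Msh6 overlapped the next in its range over the libraries. Apex1 had an SD of 1.23 and was at or under 3 fragments in 5 libraries, so its place in the order is not firm. Genes further apart in the order did not always overlap: the lowest library of Trp53bp1, 6.59, lay above the highest of Xrcc4, 4.35. The scaled counts of a locus also take in assembled transcripts that carry no annotation identifier, which made up 223 of the 376 transcripts of the Trp53bp1 locus, 157 of 268 at Rif1, 61 of 116 at Exo1 and 11 of 21 at Msh6, so the annotated exon length is not the exact length behind the counts.

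The genes did not share one profile over the libraries. In B6.Sle1b replicate 1, Rif1 lay 2.05 above the mean of B6.Sle1b replicates 2 and 3 on the log2 scale, Xrcc4 lay 1.60 above it, Msh6 0.88, Lig4 0.87 and Trp53bp1 0.64, whereas Ung differed by -0.02 and Exo1 by -0.62. The median over all tested loci was 0.30, with a middle 50% from -0.23 to 0.87, and that of the ribosomal protein genes was 1.91. Rif1 was beside the ribosomal protein genes in this library, while Ung and Exo1 lay on the other side of the median of all loci. The SD was narrower in Sle1b.IFNγR-/- than in B6.Sle1b spleens in 6 of the 8 genes, and at 59.0% of all tested loci.

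**Figure D3:**
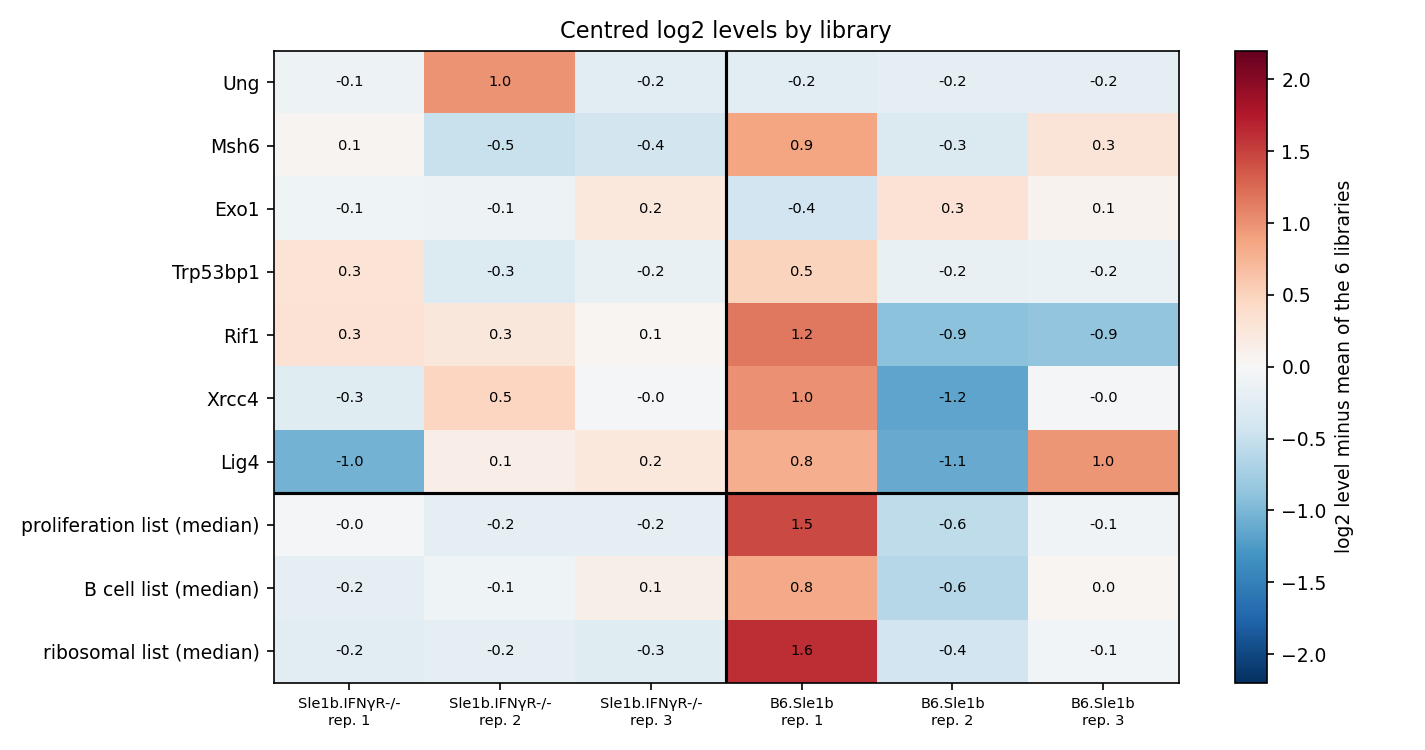
Log2 level of 7 of the 8 genes in each library after subtracting the gene's mean over the 6 libraries (Apex1, listed at 0 in 4 libraries, is left out), with Sle1b.IFNγR-/- libraries left and B6.Sle1b libraries right of the vertical line. The lower rows give the median of the proliferation, B cell and ribosomal lists; Rif1 and Xrcc4 are high with those lists in B6.Sle1b replicate 1, Exo1 is low there, and Ung is high in Sle1b.IFNγR-/- replicate 2.

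For each tested gene, the named gene nearest in its profile over the 6 libraries was found by the root mean square difference of centred log2 levels, among all tested loci. The nearest to Trp53bp1 was Rgs9bp at 0.060, the nearest to Exo1 was Ephb2 at 0.068, the nearest to Ung was Ip6k3 at 0.085 and the nearest to Msh6 was Thoc7 at 0.086. Rif1 had Dda1 at 0.101 and Lig4 had Smtnl1 at 0.204 as nearest. The typical difference from any tested locus was larger, with a median between 0.498 for Trp53bp1 and 0.843 for Lig4. With 6 libraries and 19227 loci to choose from, a near profile says nothing of shared function.

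Because these proteins serve dividing cells and B cells alike, each gene was also set against proliferation genes and against B cell markers in the same library, as its log2 level minus the median log2 level of the list. A scaling between libraries cancels in this ratio, apart from the added count of 1 in the logarithm, which matters at low levels and makes the Apex1 ratios uninformative. There were 16 such comparisons, Apex1 included, and in 14 of them the genotypes overlapped.

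Msh6 was low for the B cell markers of its library in Sle1b.IFNγR-/- spleens. Its log2 level minus that of the B cell list was -0.25, -0.82 and -0.79 in Sle1b.IFNγR-/- spleens, against 0.04, 0.24 and 0.10 in B6.Sle1b spleens. The groups did not overlap, and the 3 B6.Sle1b libraries, B6.Sle1b replicate 1 included, lay close together on this scale. The difference of means was -0.75, and its exact two-sided permutation p was 0.1, the smallest that 3 against 3 allows, or 0.8 after Benjamini-Hochberg adjustment over the 16. Of all tested loci, 9.72% were lower and 0.739% higher without overlap on this scale, so a gene in this position was common. Leaving out each library in turn gave differences from -0.93 to -0.65. With the mean of the list in place of its median, the difference was -0.41 and the exact permutation p 0.2.

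Rif1 was high for the proliferation genes of its library in Sle1b.IFNγR-/- spleens. Its log2 level minus that of the proliferation list was 0.10, 0.21 and -0.22 in Sle1b.IFNγR-/- spleens, against -0.35, -0.50 and -0.96 in B6.Sle1b spleens. Again the groups did not overlap, and B6.Sle1b replicate 1, the highest library for Rif1 itself, fell in with the other B6.Sle1b libraries. The difference of means was 0.64, with an exact two-sided permutation p of 0.1 and 0.8 after adjustment over the 16. Of all tested loci, 2.51% were higher and 1.31% lower without overlap on this scale. Leaving out each library in turn gave 0.46 to 0.76. The proliferation list itself had a summed level of 1071 to 1218 in Sle1b.IFNγR-/- spleens, against 4228, 735 and 1330 in B6.Sle1b replicates 1, 2 and 3, and its part in the result was not tested.

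**Figure D4:**
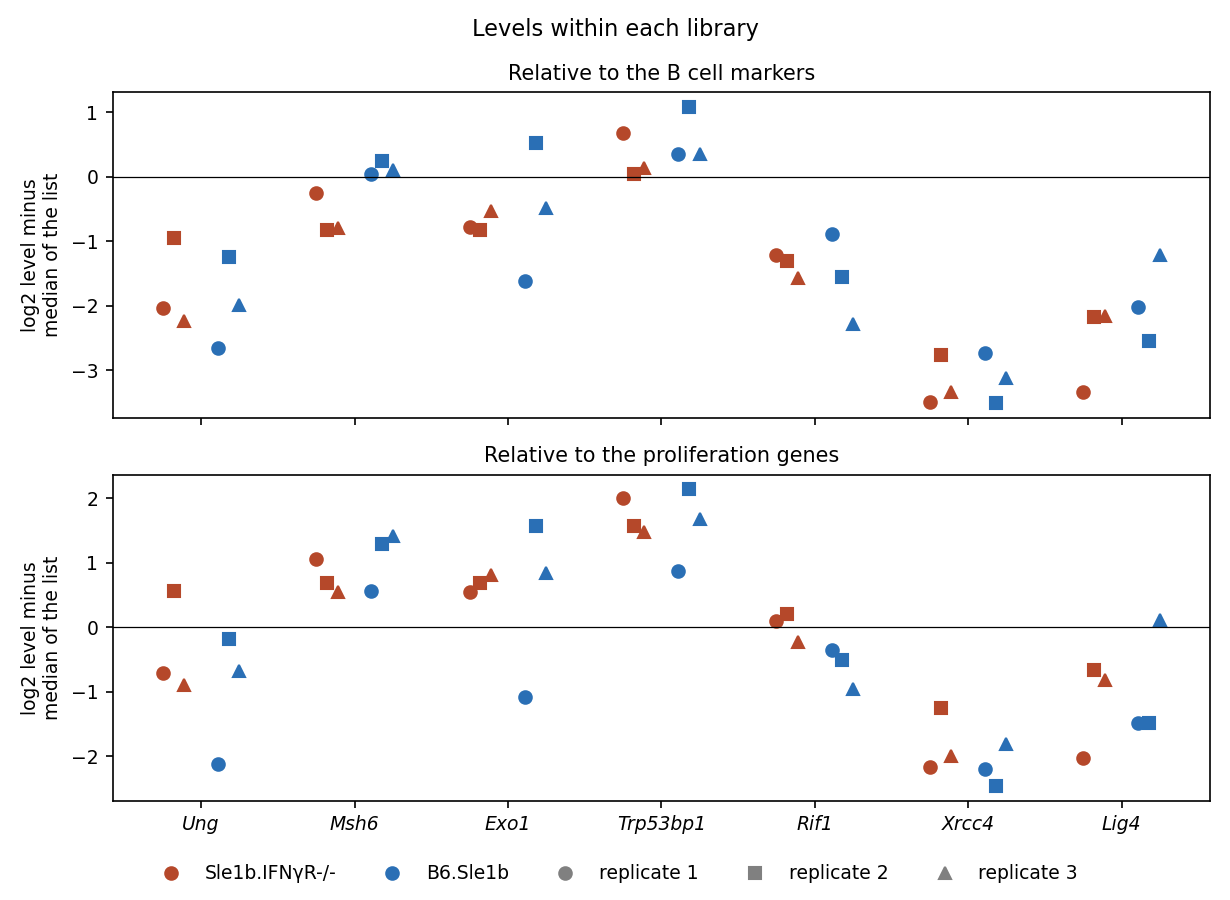
Log2 level of 7 of the 8 genes minus the median log2 level of the B cell markers (upper panel) or of the proliferation genes (lower panel) in the same library (Apex1, listed at 0 in 4 libraries, is left out). Sle1b.IFNγR-/- libraries are red and left, B6.Sle1b libraries blue and right; the genotypes separate for Msh6 in the upper panel (difference -0.75) and for Rif1 in the lower panel (0.64), and overlap for the other genes drawn.

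Ratios between partners give the same libraries from another side; they were chosen after the values were seen and were not tested. Rif1 over Trp53bp1 was 0.262, 0.386 and 0.302 in Sle1b.IFNγR-/- spleens, against 0.421, 0.152 and 0.153 in B6.Sle1b spleens. Lig4 over Xrcc4, the subunits of the ligase, was 1.13, 1.55 and 2.43 in Sle1b.IFNγR-/- spleens, against 1.67, 2.25 and 4.11 in B6.Sle1b spleens. Both ratios overlapped between the genotypes.

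Bcl6, the transcription factor of germinal centre B cells, had 35.9, 21.4 and 27.6 scaled counts in Sle1b.IFNγR-/- spleens, against 95.8, 37.8 and 82.5 in B6.Sle1b spleens. Its groups did not overlap, and its log2 difference was -1.25 with an adjusted p of 0.9998 in limma. Of the 8 tested germinal centre B cell genes, only Bcl6 had groups without overlap, beside 8.7% of all tested loci (5.19% lower). It was also the only 1 of the 8 with an unadjusted p under 0.05 in limma, beside 3.1%. In Sle1b.IFNγR-/- spleens 7 of the 8 were lower, beside 58.1% of all tested loci. Fas was higher, with 42.8, 56.2 and 27.6 scaled counts, against 44.8, 25.5 and 25.3 in B6.Sle1b spleens. The median of the 8 was -0.42, which was -0.049 without B6.Sle1b replicate 1 and -0.85 without B6.Sle1b replicate 2.

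Markers of antibody-forming cells, the cells that secrete antibody, switched or not, were lower in Sle1b.IFNγR-/- spleens in all 6 that were tested of 9. Their median log2 difference was -1.32 (-0.55 without B6.Sle1b replicate 1 and -1.84 without B6.Sle1b replicate 2). Over all tested loci, 58.1% were lower. None of the 6 passed the threshold. The groups of 4 of them did not overlap, all lower in Sle1b.IFNγR-/-, beside 5.19% of all tested loci. The summed level of the 9 was 167, 192 and 168 in Sle1b.IFNγR-/- spleens, against 1077, 209.6 and 323 in B6.Sle1b spleens, and Tnfrsf17 was listed at 0 in every library. Jchain, the joining chain of IgM and IgA, had 44.6, 52.8 and 40.7 scaled counts in Sle1b.IFNγR-/- spleens, against 377, 53.4 and 86.2 in B6.Sle1b spleens. Creld2, an endoplasmic reticulum protein, had the smallest p of the list (log2 difference -2.61, adjusted p = 0.9998 in limma). The part of these cells in the levels of the 8 genes was not tested.

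The wider list of class switching held 52 other genes, of which 51 were found by name and 45 were tested. None passed the threshold (0.0% of all tested loci did). Of the 45, 35 were lower and 10 were higher in Sle1b.IFNγR-/- spleens, with a median log2 difference of -0.19, beside 58.1% lower and -0.083 over all tested loci. The summed level of the 51 genes was 1562, 1664 and 1809 in Sle1b.IFNγR-/- spleens, against 2916, 1457 and 1848 in B6.Sle1b spleens. The excess was in B6.Sle1b replicate 1, and without that library the median log2 difference of the 45 was -0.043, with 24 lower. Without B6.Sle1b replicate 2 it was -0.46, with 38 lower. With median-ratio scaling, 29 of the 45 were lower and their median was -0.11, beside -0.0069 over all tested loci. Upper-quartile scaling gave 28 lower and a median of -0.083, beside 0.019. With ribosomal protein genes as the scale, 11 of the 45 were lower and their median was 0.35, beside 0.45 over all tested loci.

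Genes of deamination, mismatch recognition and uracil repair were lower in 13 of 15, beside 58.1% of all tested loci. The median of the 15 was -0.36 (-0.16 without B6.Sle1b replicate 1 and -0.51 without B6.Sle1b replicate 2). Tdg, another uracil glycosylase, had a log2 difference of -0.65. On the other side, Smug1, also a uracil glycosylase, had 0.15, which was -0.16 without B6.Sle1b replicate 1. Rpa2, a subunit of the single-strand binding protein, had 0.001.

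Of the break response genes, 11 of 16 were lower, beside 58.1% of all tested loci, and the median of the 16 was -0.093. The sign of that median turned on single libraries, at 0.20 without B6.Sle1b replicate 1 and -0.43 without B6.Sle1b replicate 2. Paxip1, which encodes the 53BP1 partner PTIP, had 54.2, 76.4 and 70.7 scaled counts in Sle1b.IFNγR-/- spleens, against 140.6, 74.8 and 100.3 in B6.Sle1b spleens (log2 difference -0.61, adjusted p = 0.9998 in limma). Kmt5a, listed under its older name Setd8, sets the histone mark that leads to the one 53BP1 binds. It had 40.2, 32.6 and 37.1 scaled counts in Sle1b.IFNγR-/- spleens, against 200.7, 27.1 and 64.7 in B6.Sle1b spleens, a log2 difference of -0.94. For Kmt5a the difference lay mainly in B6.Sle1b replicate 1, and without it the log2 difference was -0.20. The helicase Blm had 48.1, 45.0 and 71.9 scaled counts in Sle1b.IFNγR-/- spleens, against 42.8, 42.7 and 33.7 in B6.Sle1b spleens, so its groups did not overlap (log2 difference 0.43, adjusted p = 0.9998 in limma). Rad50, of the complex that first binds breaks, had a log2 difference of 0.33, which was 0.95 without B6.Sle1b replicate 1 and -0.37 without B6.Sle1b replicate 2. Blm had 6 loci under its name and Rad50 had 3, and the values are those of the locus of highest mean.

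Of the end-joining genes, 11 of 14 were lower, beside 58.1% of all tested loci. The median of the 14 was -0.18 (-0.079 without B6.Sle1b replicate 1 and -0.34 without B6.Sle1b replicate 2). Poll, a gap-filling polymerase of end joining, had 6.12, 12.4 and 12.0 scaled counts in Sle1b.IFNγR-/- spleens, against 29.6, 14.8 and 13.1 in B6.Sle1b spleens (log2 difference -0.82, adjusted p = 0.9998 in limma). Its groups did not overlap. Polq, the polymerase of the alternative pathway that uses microhomology, had 83.9, 88.8 and 88.6 scaled counts in Sle1b.IFNγR-/- spleens, against 62.2, 76.5 and 83.4 in B6.Sle1b spleens, also without overlap (log2 difference 0.24, adjusted p = 0.9998 in limma). The nearest Polq values, 83.9 and 83.4, lay closer than the 0.874 or 0.937 scaled counts that 1 fragment was worth in those libraries. Parp1, the break sensor, whose locus is merged with Mir6904, had a log2 difference of -0.58, which was -0.090 without B6.Sle1b replicate 1. Polm, another gap-filling polymerase, had 0.52, which was 1.29 without that library. Blm, Poll and Polq were the 3 of the 45 whose groups did not overlap, beside 8.7% of all tested loci.

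**Figure D5:**
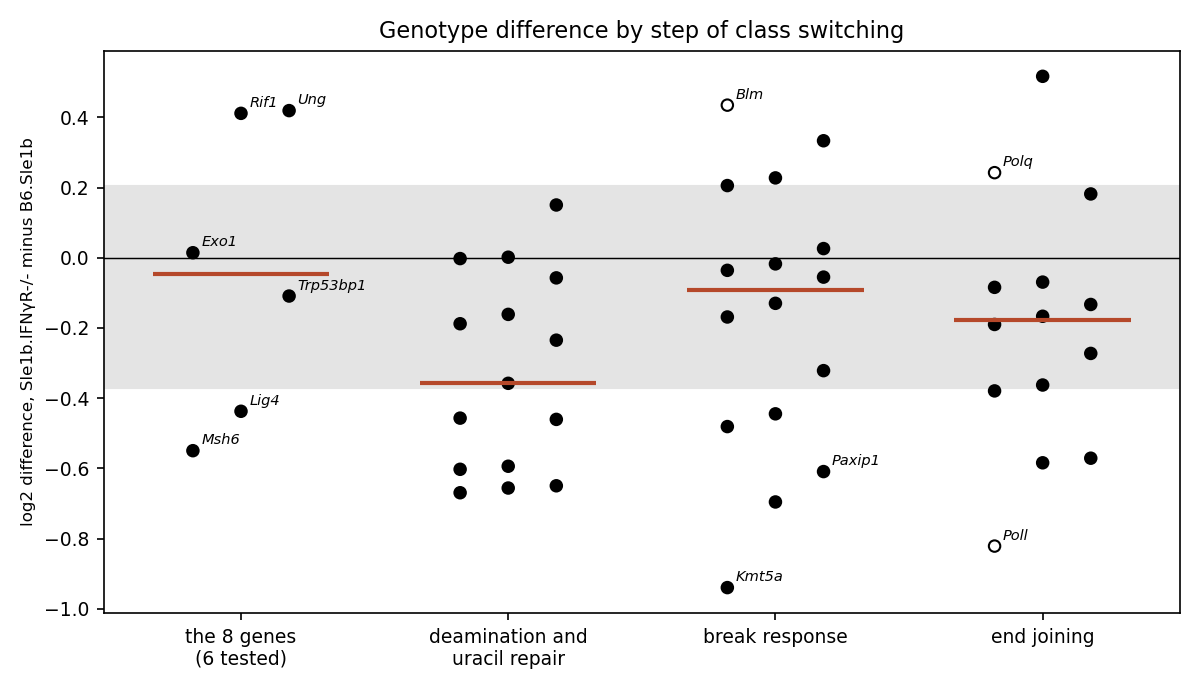
Log2 difference, Sle1b.IFNγR-/- minus B6.Sle1b, of the 6 tested genes and of the 45 tested genes of the wider list, by step of class switching. Each point is a gene, open points are genes whose groups did not overlap (Blm, Polq and Poll), red lines are medians (-0.048, -0.36, -0.093 and -0.18 from left to right), and the grey band is the middle 50% of all tested loci (-0.37 to 0.20).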

How the data were processed

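RNA of 6 whole spleens was measured by RNA sequencing of cDNA made with the Ovation RNA-seq System, per the labels' protocols. Reads were processed with TopHat2 2.0.9 and Cufflinks 2.2.1 on GRCm38, per the submitters' processing notes. The deposited signal is a fragment count per locus that the authors scaled between libraries. Scaled counts are whole multiples of a step for at least 99.79% of the values of a library (tolerance 0.01 of a step), those of the 8 genes included, which gave the fragments behind the 8 genes. The planned count tests were not run because the remaining values lay between steps. The 24 columns of other samples in the table were not used.

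The members, lists and tests were chosen with earlier results of these data known. Of the 44794 named loci, the 19227 with a mean of at least 10 entered a limma fit (version 3.58.1, R 4.3.3) of log2(value + 1) on genotype alone, whose variance prior followed the mean level. The pseudocount of 1 understates the change of low genes. Two-sided p-values were adjusted by the Benjamini-Hochberg method over all 19227, with a threshold of 0.05. Ratios within a library were compared by exact permutation (scipy 1.17.1). Exact Poisson 95% intervals cover counting error only. Of 203 entries in the gene lists, 199 matched a locus by name.

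Named genes are the 8 members, the receptor genes, the 2 tested genes of smallest p in each direction of each class-switching list, leading genes of the cell type lists, and the nearest gene in profile to each tested member. Promoters are those of the 2 tested members of smallest p. Alternatives were other scalings, pseudocounts and filters, a robust fit, covariates, a replicate block and leaving out each library. Genes that fall under the rule but are withheld are not reported here.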

Additional observations from a re-analysis of the deposited data

How the results depend on the processing

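Of 111 values of the 6 tested genes under the alternatives, 10 changed sign and none passed the threshold, the smallest adjusted p in limma being 0.464. Over all loci, 7 passed with the ribosomal level as a covariate, 7 with the housekeeping level, and between 0 and 5 when each library was left out (5 without B6.Sle1b replicate 1 and 5 without B6.Sle1b replicate 2). Scaling by ribosomal protein genes moved the median of all loci to 0.45, the median of the 6 genes to 0.50 with 1 lower, and that of the wider list to 0.35 with 11 lower. It gave Trp53bp1 a log2 difference of 0.44 and Lig4 0.093. With the ribosomal covariate Exo1 was at -0.18, Trp53bp1 at 0.078, and 23 genes of the wider list were lower. With the housekeeping covariate Exo1 was at -0.16 and Trp53bp1 at 0.047. Both covariates were highest by far in B6.Sle1b replicate 1, so they are not separate from leaving out that library. With a minimum mean of 50, 9 of the 12 wider-list genes left were lower. This filter left fewer genes to count. Scaling by ribosomal protein genes divided B6.Sle1b replicate 1 by 2.86 and the other libraries by 0.698 to 0.893, which shifted loci in general. Counted from the median of all loci, Lig4 was at -0.352 on that scale and -0.354 in the main fit. The cause of the other changes was not tested. Leaving out each library gave Exo1 -0.19 to 0.18 and Trp53bp1 -0.29 to 0.11.

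For levels relative to a list, using the list's mean changed the sign for Exo1, Trp53bp1 and Xrcc4 against B cell markers. The differences were 0.15, 0.031 and 0.26 in that order, where the list's median gave -0.18, -0.31 and -0.077. Leaving out each library gave, against proliferation genes, -0.52 to 0.80 for Exo1, -0.23 to 0.40 for Trp53bp1 and -0.48 to 0.32 for Lig4. Against B cell markers it gave -0.17 to 0.58 for Ung, -0.73 to 0.34 for Exo1, -0.14 to 0.56 for Rif1 and -0.29 to 0.12 for Xrcc4.

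Same-numbered samples did not deviate together, with correlations of 0.012, -0.027 and -0.011 for the 3 pairs. A fit with the replicate block called 0 genes, and Msh6 was at -0.55 with an unadjusted p of 0.114. The planned edgeR and DESeq2 alternatives were not run, because values between steps kept whole fragments from being recovered for every locus. Counts of 9 to 41 fragments limit Lig4 and Ung, and 3 samples a group limit all of them.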
